A study of Mus musculus with 18 samples.

Results

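The B7 ligands studied here are the 6 genes *Cd274* (PD-L1), *Pdcd1lg2* (PD-L2), *Cd80* (B7-1), *Cd86* (B7-2), *Icosl* (ICOS ligand) and *Cd276* (B7-H3), chosen by symbol among 37236 genes measured by RNA sequencing of CD3+ TILs. All 6 were found in the data. TILs came from B16-OVA tumors of C57BL/6 mice harvested at d14. B16-OVA cells are melanoma cells of the mouse that carry ovalbumin, so that T cells against a known antigen can be followed. All mice received 500000 tumor cells s.c., and antibody injections of 0.5 mg i.p. began on d3 and were repeated. Nr2f6+/+ (wild-type) and Nr2f6-/- mice, which lack the nuclear receptor NR2F6 in the whole animal and were back-crossed to C57BL/6, received either IgG2b as control antibody or an antibody against PD-L1 itself. The samples were 3 Nr2f6+/+ IgG2b, 6 Nr2f6+/+ anti-PD-L1, 3 Nr2f6-/- IgG2b and 6 Nr2f6-/- anti-PD-L1, 18 in all. The methods give an age of 8 to 12 weeks for mice that received B16-OVA cells. The study's legend counts its RNA sequencing samples as mice, with fewer in each anti-PD-L1 group than the 6 deposited, and all 6 were used here. The sample labels do not say that each sample is a separate mouse, so p-values measure the spread between these samples, part of which may be technical.

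Members of the B7 family are surface proteins of antigen-presenting cells, tumor cells and, in part, activated T cells. B7-1 and B7-2 bind CD28, which gives the T cell its costimulatory signal, and CTLA-4, which competes with CD28 for them. PD-L1 and PD-L2 bind PD-1 and dampen the signal of the T cell receptor, and PD-L1 is induced by interferon gamma in many cell types. ICOS ligand binds ICOS on activated T cells. B7-H3 is found on many tumor and stromal cells and its receptor on T cells is not settled. An antibody that blocks the PD-L1 protein acts at the cell surface, and the values below are transcripts.

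*Cd274* lies on chromosome 19 of the GRCm38.p6 assembly (29362107 to 29388095) and *Pdcd1lg2* 22.8 kb further along the same chromosome (29410919 to 29472927). *Cd86* (36568956 to 36666158) and *Cd80* (38457430 to 38495958) lie on chromosome 16, *Icosl* (78069368 to 78079525) on chromosome 10 and *Cd276* (58524300 to 58555033) on chromosome 9. Promoter windows of 300 bases, from 250 before to 50 after a transcript start, were found in RefSeq for 5 of the 6 genes, all but *Cd86*. They were searched on both strands for the STAT motif TTCNNNGAA, the interferon regulatory factor motif (GAAA, any 2 bases, GAAA), the AP-1 motif TGANTCA and the nuclear receptor half-site AGGTCA. Of 32851 promoter windows in the table, 8.30%, 3.44%, 7.81% and 16.3% held these letters, in that order. A match was found in *Cd80* alone, and the windows of the antibody target, of its neighbor *Pdcd1lg2* and of *Cd80* are printed 5′ to 3′ with the match, TGATTCA, in capitals. They lie at chr19:29367188-29367487, chr19:29410669-29410968 and chr16:38458683-38458982, all on the forward strand. The windows of *Cd274* and *Cd80* lie inside the gene bounds given above, so the bases around the outermost start of either gene were not searched.
Cd274: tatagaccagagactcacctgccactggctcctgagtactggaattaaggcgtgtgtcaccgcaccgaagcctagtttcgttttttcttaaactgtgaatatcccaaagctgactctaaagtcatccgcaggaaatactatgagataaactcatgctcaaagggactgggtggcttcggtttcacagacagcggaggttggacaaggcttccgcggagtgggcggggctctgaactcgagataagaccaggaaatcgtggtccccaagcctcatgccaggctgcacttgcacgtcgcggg
Pdcd1lg2: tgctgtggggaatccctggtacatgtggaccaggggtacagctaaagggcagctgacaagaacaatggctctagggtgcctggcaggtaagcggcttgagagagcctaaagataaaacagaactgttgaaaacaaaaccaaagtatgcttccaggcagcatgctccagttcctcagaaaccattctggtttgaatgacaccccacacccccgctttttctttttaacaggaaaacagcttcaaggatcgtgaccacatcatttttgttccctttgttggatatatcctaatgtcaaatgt
Cd80: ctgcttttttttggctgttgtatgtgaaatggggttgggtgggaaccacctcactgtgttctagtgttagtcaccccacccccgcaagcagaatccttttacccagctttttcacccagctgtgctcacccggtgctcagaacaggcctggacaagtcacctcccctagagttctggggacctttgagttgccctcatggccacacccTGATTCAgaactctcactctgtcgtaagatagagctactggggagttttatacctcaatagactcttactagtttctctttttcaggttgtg
A match or its absence describes the letters of these windows only.

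Expression is given in normalized counts, which are reads divided by a size factor for each sample. Between 12473391 and 18609482 reads were counted on genes per sample, and 3 reads, taken as the smallest level this depth can show, corresponded to 2.46 to 3.64 normalized counts. Floors of this kind cover counting error only. The confidence intervals of log2 fold changes given below rest instead on the spread between samples. The targeted gene *Nr2f6* had 0 reads in all 9 Nr2f6-/- samples and was at 20.2 to 201 normalized counts in Nr2f6+/+ samples. By their library numbers the samples fall into 2 sets, of which the later one consists of replicates 4 to 6 of both anti-PD-L1 groups. The 12 T cell marker genes had reads in every group. Their mean log2 level was between 12.1 and 12.7 in all samples, and it was higher with anti-PD-L1 in Nr2f6-/- mice by 0.33 and for the combination of Nr2f6 loss and antibody by 0.49 (exact permutation test, adjusted p = 0.0366 each over 40 list comparisons). The samples also held transcripts of other cells, which are described after the ligands. In bulk samples, fewer cells of a type and less RNA per cell cannot be told apart.

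*Cd274*, which encodes the target of the antibody, was detected in all 18 samples. In Nr2f6+/+ mice it was at 218, 275 and 440 normalized counts with IgG2b, and with anti-PD-L1 the lowest sample was at 86.3, the median at 253 and the highest at 479. Treated samples were found both below and above all controls, so the groups overlapped. The group means were 311 ± 115 (SD, n = 3) and 266 ± 148 (SD, n = 6), a log2 fold change of −0.38 with a 95% confidence interval from −1.56 to 0.79 (adjusted p = 0.937 from limma). In Nr2f6-/- mice *Cd274* was at 795, 656 and 367 with IgG2b, while the anti-PD-L1 samples had a lowest value of 95.4, a median of 347 and a highest value of 432. Of the 3 controls, 2 lay above all treated samples and the third lay among them. Here the means were 606 ± 218 (SD, n = 3) and 310 ± 133 (SD, n = 6), and the log2 fold change was −1.06 (interval −2.23 to 0.12), which did not pass the test (adjusted p = 0.574, unadjusted p = 0.0759 from limma). This change was −0.63 in the first library set alone (adjusted p = 0.752 from limma), and between −1.38 and −0.75 without 1 sample each. Whether the antibody effect on *Cd274* differed between the genotypes was tested directly, and the difference of −0.67 had an interval from −2.34 to 0.99 (adjusted p = 0.988 from limma). In the first library set alone, it was −0.10 (adjusted p = 0.986 from limma).

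Between genotypes, *Cd274* was highest in Nr2f6-/- IgG2b samples, and the other groups followed closely behind one another, at 311, 310 and 266 normalized counts. With IgG2b the log2 fold change of Nr2f6-/- against Nr2f6+/+ was 0.95 (interval −0.41 to 2.31, adjusted p = 0.989 from limma), and 2 of the 3 Nr2f6-/- samples exceeded every Nr2f6+/+ sample. With anti-PD-L1 it was 0.28 (interval −0.68 to 1.24, adjusted p = 0.888 from limma). This value differed between the library sets. In the first set the Nr2f6-/- samples were at 345 to 432 and the Nr2f6+/+ samples at 137 to 260, a log2 fold change of 0.85 (adjusted p = 0.560 from limma), whereas in the second set the means were 244 ± 169 and 317 ± 205 (SD, n = 3 each). None of the 3 steps in this order passed the test. *Ifng*, the gene of the cytokine that induces PD-L1, was, with IgG2b, at 2623 ± 501 in Nr2f6+/+ and 3818 ± 173 in Nr2f6-/- samples (SD, n = 3 each), and at 3895 ± 799 and 5168 ± 2089 (SD, n = 6 each) with anti-PD-L1. None of the comparisons between these groups passed the test for *Ifng*. For the combination against Nr2f6+/+ IgG2b, where the groups did not overlap, its log2 fold change was 0.91 (interval 0.40 to 1.41, adjusted p = 0.0927 from limma). The genotypes with IgG2b did not overlap for *Ifng* either, with a log2 fold change of 0.56 (interval −0.02 to 1.14, adjusted p = 0.920 from limma). A relation of *Ifng* to *Cd274* was not tested.

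**Figure D1:**
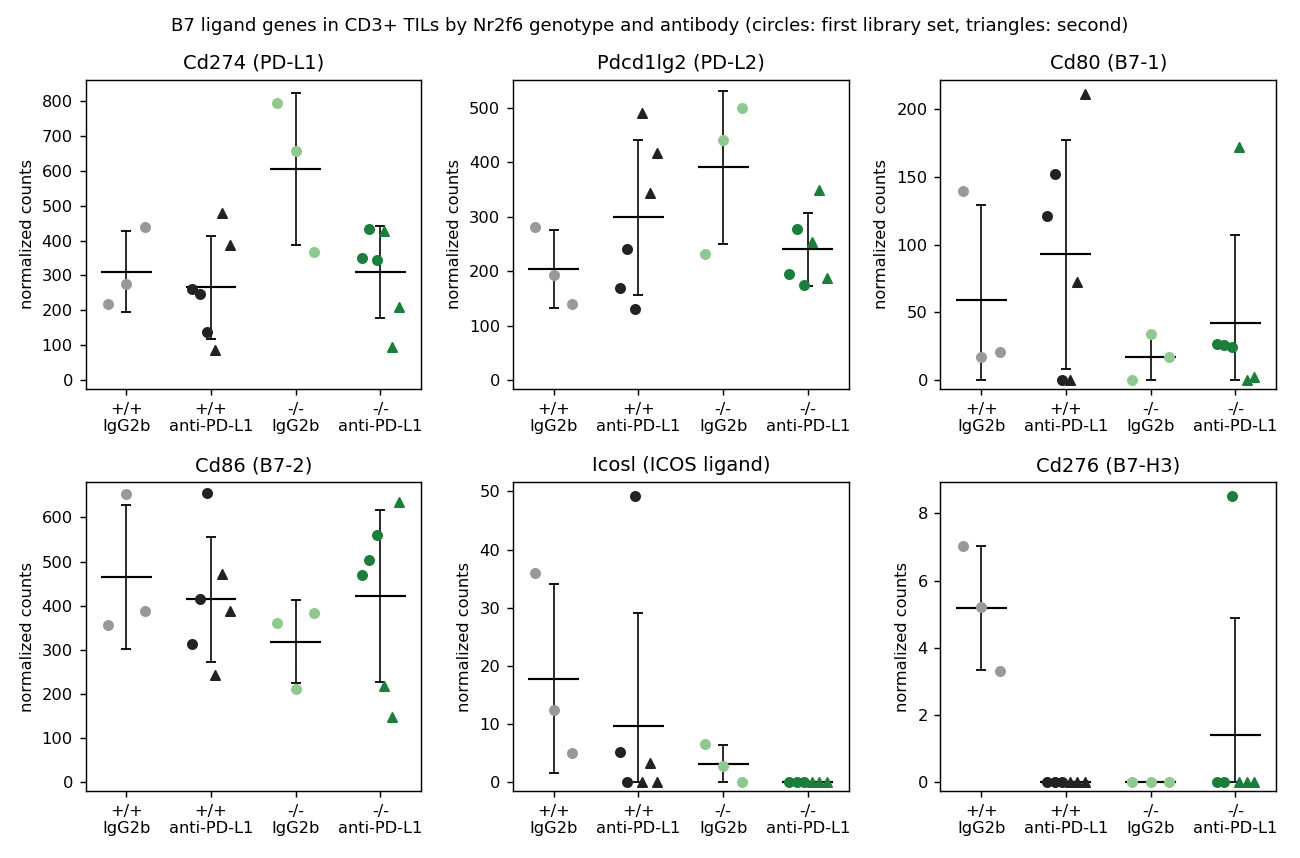
Normalized counts of the 6 B7 ligand genes in each sample, by Nr2f6 genotype and antibody. Circles are samples of the first and triangles of the second library set, horizontal bars are group means and whiskers are ± 1 SD, cut at 0. *Cd274* reached 795 in an Nr2f6-/- IgG2b sample, whereas *Icosl* was at 0 in all 6 Nr2f6-/- anti-PD-L1 samples.

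*Pdcd1lg2*, the gene of the other PD-1 ligand, was also present in every sample. In Nr2f6+/+ mice it was at 281, 193 and 139 normalized counts with IgG2b and between 131 and 491 (median 292) with anti-PD-L1, and all controls lay within the range of the treated samples. The means were 204 ± 71.6 (SD, n = 3) and 298 ± 142 (SD, n = 6), with a log2 fold change of 0.45 (interval −0.65 to 1.55, adjusted p = 0.915 from limma). Within the anti-PD-L1 group the first library set was at 131 to 241 and the second at 343 to 491, and in the first set alone the log2 fold change against IgG2b turned to −0.17. In Nr2f6-/- mice *Pdcd1lg2* was at 232, 440 and 500 with IgG2b and between 175 and 348 (median 224) with anti-PD-L1. Again 2 of 3 controls lay above all treated samples, and the log2 fold change was −0.67 (interval −1.77 to 0.43, adjusted p = 0.750 from limma). The direction of the antibody effect was thus opposite in the means of the genotypes, but the difference of −1.12 between them did not pass the test (interval −2.68 to 0.43, adjusted p = 0.974 from limma). Between genotypes the log2 fold change was 0.92 with IgG2b (adjusted p = 0.989 from limma) and −0.21 with anti-PD-L1 (adjusted p = 0.912 from limma). From the highest to the lowest mean the groups were Nr2f6-/- IgG2b, Nr2f6+/+ anti-PD-L1, Nr2f6-/- anti-PD-L1 and Nr2f6+/+ IgG2b, and each step was smaller than the SD within the groups beside it.

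Although *Cd274* and *Pdcd1lg2* are neighbors on chromosome 19, Pearson's r of their log2 levels over the 18 samples was −0.01 and Spearman's rho 0.10, and r of the deviations from the group means was −0.23. Among the 6 pairs of ligands that could be set side by side, r ranged from −0.54 for *Pdcd1lg2* with *Cd86* to 0.44 for *Cd274* with *Cd80*, and within groups from −0.51 to 0.66 for the same pairs. The genes whose log2 levels followed *Cd274* most closely among all genes tested were *Stoml2* (r 0.84), *Jund* (0.83), a subunit of AP-1, and *Pmaip1* (0.81), which encodes the proapoptotic protein NOXA. For *Pdcd1lg2* they were *Pola2* (0.77), a subunit of DNA polymerase alpha, *Sypl* (0.75) and *Cmas* (0.70). *Cd80* was closest to *Inpp5a* (0.81), *Tmem63b* (0.76) and *Fnip1* (0.74), and *Cd86* to *Mir22hg* (0.76), *Riok3* (0.76) and *Shkbp1* (0.74). These are the highest coefficients among all genes tested, over 18 samples whose values share library and depth, and they serve as a description.

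The CD28 ligands differed in how evenly they were measured. *Cd86* was detected in all samples, at 357, 652 and 387 normalized counts in Nr2f6+/+ IgG2b and between 243 and 654 (median 402) in Nr2f6+/+ anti-PD-L1. In Nr2f6-/- mice it was at 361, 211 and 384 with IgG2b and between 148 and 635 (median 486) with anti-PD-L1. The ranges overlapped in every comparison, and the group means lay between 319 ± 94.0 (SD, n = 3, Nr2f6-/- IgG2b) and 465 ± 163 (SD, n = 3, Nr2f6+/+ IgG2b). The log2 fold change with anti-PD-L1 was −0.18 in Nr2f6+/+ mice (interval −1.17 to 0.80, adjusted p = 0.975 from limma) and 0.28 in Nr2f6-/- mice (interval −0.71 to 1.26, adjusted p = 0.907 from limma). Between genotypes it was −0.08 with anti-PD-L1 (interval −0.89 to 0.72, adjusted p = 0.966 from limma) and −0.54 with IgG2b (interval −1.68 to 0.60, adjusted p = 0.989 from limma).

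*Cd80* varied far more from sample to sample. It had 0 reads in 4 of the 18 samples, namely 2 Nr2f6+/+ anti-PD-L1, 1 Nr2f6-/- IgG2b and 1 Nr2f6-/- anti-PD-L1 sample, and reached 211 normalized counts in another Nr2f6+/+ anti-PD-L1 sample. Nr2f6+/+ IgG2b samples were at 140, 16.7 and 20.7, and the Nr2f6+/+ anti-PD-L1 samples had a median of 96.7. In Nr2f6-/- mice the IgG2b samples were at 0, 33.9 and 16.7, and the anti-PD-L1 samples lay between 0 and 172 (median 25.2). Every pair of groups overlapped. The log2 fold change with anti-PD-L1 was −0.56 in Nr2f6+/+ and 0.78 in Nr2f6-/- mice, with intervals from −4.39 to 3.28 and from −3.05 to 4.62, so that even large changes in either direction were not detectable (adjusted p = 0.984 and 0.938 from limma). In Nr2f6+/+ mice the mean of *Cd80* was 59.0 ± 69.9 (SD, n = 3) normalized counts with IgG2b and 92.7 ± 84.8 (SD, n = 6) with anti-PD-L1, so the direction depended on the scale. Within groups its SD was 2.96 on the log2 scale, against a median of 2.45 among the 500 genes nearest in level. The corresponding SDs were 0.80 for *Cd274* (median of like genes 0.81), 0.58 for *Pdcd1lg2* (0.88) and 0.64 for *Cd86* (0.70).

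*Icosl* and *Cd276* stayed under a mean of 10 normalized counts over all samples and were not part of the fit. *Icosl* was at 36, 12.5 and 4.98 normalized counts in Nr2f6+/+ IgG2b samples. With anti-PD-L1 in Nr2f6+/+ mice it was at 0 in 3 of 6 samples, at 3.29 and 5.22 in 2 others and at 49.1 in the remaining one. Nr2f6-/- IgG2b samples were at 6.66, 2.83 and 0, and all 6 Nr2f6-/- anti-PD-L1 samples had 0 reads. The ICOS ligand transcript was therefore seen in each IgG2b-treated Nr2f6+/+ sample and in none with the combination of Nr2f6 loss and anti-PD-L1, where 3 reads per sample correspond to a mean of 2.96 normalized counts. Against that limit *Icosl* was at least 6.03-fold lower, and the groups did not overlap (exact permutation test, two-sided, p = 0.0119, the smallest these group sizes allow, and 0.179 after adjustment over 30 comparisons). This is 59 reads in 3 samples against 0 in 6, and the highest of the 3 samples held 41 of the reads. Without that sample the bound was 2.96-fold. Between the genotypes with anti-PD-L1 *Icosl* was at least 3.25-fold lower in Nr2f6-/- mice, but this rests on Nr2f6+/+ replicate 3, without which the mean was 1.70 and under the floor.

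*Cd276* was found in 4 of 18 samples. All 3 Nr2f6+/+ IgG2b samples had reads, at 7.03, 5.21 and 3.32 normalized counts (17 reads in all), and so did 1 Nr2f6-/- anti-PD-L1 sample (8.50 normalized counts, 7 reads). All 6 Nr2f6+/+ anti-PD-L1 samples and all 3 Nr2f6-/- IgG2b samples had 0 reads. In Nr2f6+/+ mice *Cd276* was thus, under anti-PD-L1, lower than with IgG2b by at least 1.81-fold, measured against 3 reads per sample (exact permutation test, two-sided, p = 0.0119, the smallest possible, and 0.179 after adjustment over 30 comparisons). With IgG2b it was at least 1.77-fold lower in Nr2f6-/- than in Nr2f6+/+ mice, without overlap (exact permutation test, p = 0.100, the smallest that 3 against 3 samples allow, and 0.429 after adjustment over 30 comparisons). Both bounds rest on the 17 reads of the Nr2f6+/+ IgG2b samples and leave out the error of these few reads. Without the highest of these samples they were 1.49-fold and 1.45-fold. Of the 30 comparisons of the 6 ligands, 3 had an exact permutation p under 0.05 and 0 remained after adjustment. The share of all genes, or of genes at such low levels, that reach this p or do not overlap was not determined. These counts are therefore no result about the ligands. When all genes with a value above 0 were fitted with limma, *Cd276* had an adjusted p of 0.0625 for anti-PD-L1 in Nr2f6+/+ mice and *Icosl* one of 0.186 for the combination. For both genes this fit pools the spread over all groups, and groups with 0 reads in every sample add none to it. The *Cd276* value rests on the same 17 reads, so neither p-value adds to the permutation tests.

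Across comparisons, 0 of the 4 ligand genes in the fit passed an adjusted p of 0.05 in limma, and 0 had an unadjusted p under 0.05. The same counts, 0 and 0, were found with edgeR and with DESeq2 on the recovered reads in each comparison. Few genes passed at all. Of 11992 genes tested, 0.242% passed for anti-PD-L1 in Nr2f6+/+ mice, 0.325% for anti-PD-L1 in Nr2f6-/- mice and 0.175% between the genotypes with anti-PD-L1. For the combination of Nr2f6 loss and antibody, set against IgG2b-treated wild-type mice, it was 0.617%. Between the genotypes with IgG2b, and for the difference of the antibody effect, it was 0%, with 641 and 596 genes at an unadjusted p under 0.05 in limma. Both counts are near the share of 0.05 of the 11992 genes that would be expected if no gene differed. In these 2 comparisons edgeR called 0 genes and DESeq2 88 and 76 at an adjusted p of 0.05. The ligands' count of 0 is thus close to these background shares.

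**Figure D2:**
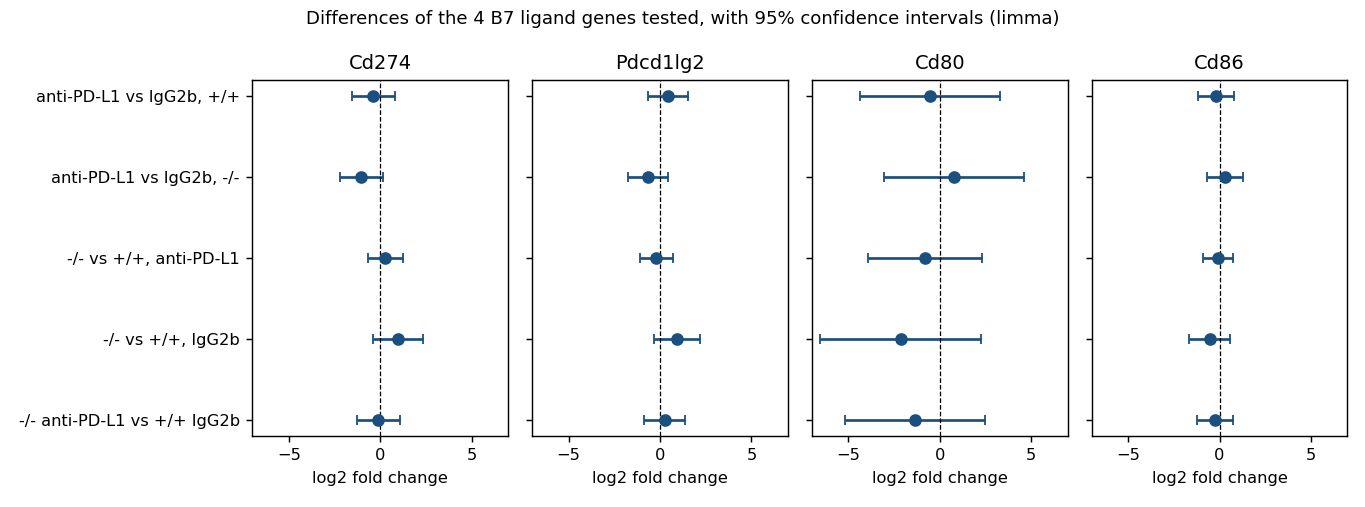
Log2 fold changes of the 4 ligand genes in the fit (points) with 95% confidence intervals from limma (bars) in 5 comparisons named on the vertical axis. All 20 intervals include 0, and those of *Cd80*, down to −6.58, are the widest.

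For the combination against IgG2b-treated Nr2f6+/+ mice, the log2 fold changes were −0.11 for *Cd274* (interval −1.28 to 1.07), 0.24 for *Pdcd1lg2* (−0.86 to 1.34), −1.37 for *Cd80* (−5.20 to 2.47) and −0.26 for *Cd86* (−1.25 to 0.72), all with an adjusted p of at least 0.928 from limma. This comparison shares its control samples with that of anti-PD-L1 in Nr2f6+/+ mice. For *Cd274*, *Pdcd1lg2* and *Cd86*, these intervals correspond to levels between 0.411-fold and 2.54-fold of the control.

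Markers of antigen-presenting cells, the usual carriers of B7-1 and B7-2, changed in the same samples. The mean log2 level of 16 macrophage and monocyte genes was 8.97 ± 0.253 (SD, n = 3) with IgG2b and 5.62 ± 1.18 (SD, n = 6) with anti-PD-L1 in Nr2f6+/+ mice. In Nr2f6-/- mice it was 8.42 ± 0.294 (SD, n = 3) and 4.78 ± 0.632 (SD, n = 6). The treatments did not overlap in either genotype (exact permutation test, p = 0.0119 each, the smallest possible, 0.0366 after adjustment over 40 list comparisons). The summed level of the list was 16703 to 21367 normalized counts with IgG2b and 1701 to 6959 with anti-PD-L1 in Nr2f6+/+ mice, and 10049 to 13659 and 1116 to 2727 in Nr2f6-/- mice. All 16 genes had a fitted change below 0 in both genotypes, with medians of −3.31 and −3.68 against −0.10 and −0.04 over all genes tested. Among them *Lyz2* (lysozyme) passed the test in Nr2f6+/+ mice (log2 fold change −2.83, adjusted p = 0.000387 from limma) and *C1qb* and *Lyz2* in Nr2f6-/- mice (−3.27 and −2.87). Of the 6 MHC class II genes, 3 passed as lower in Nr2f6+/+ mice, led by *H2-Ab1* (log2 fold change −2.14), and 4 in Nr2f6-/- mice, led by *H2-Eb1* (−2.63). All 6 were fitted below 0 in both genotypes, with medians of −1.77 and −2.33. None of the 12 dendritic cell genes passed, of which 11 were tested, but their mean log2 level was also lower, with differences of −1.95 in Nr2f6+/+ and −1.61 in Nr2f6-/- mice (exact permutation test, p = 0.0119 each), and all 11 had a fitted change below 0.

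Beside these changes, the fitted log2 fold changes with anti-PD-L1 were −0.38 and −1.06 for *Cd274*, 0.45 and −0.67 for *Pdcd1lg2*, −0.56 and 0.78 for *Cd80* and −0.18 and 0.28 for *Cd86*, in Nr2f6+/+ and Nr2f6-/- mice, in that order. Most genes did not change with the macrophage list either, as the medians over all genes show, so this sets the values side by side and is no test of the ligands.

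**Figure D3:**
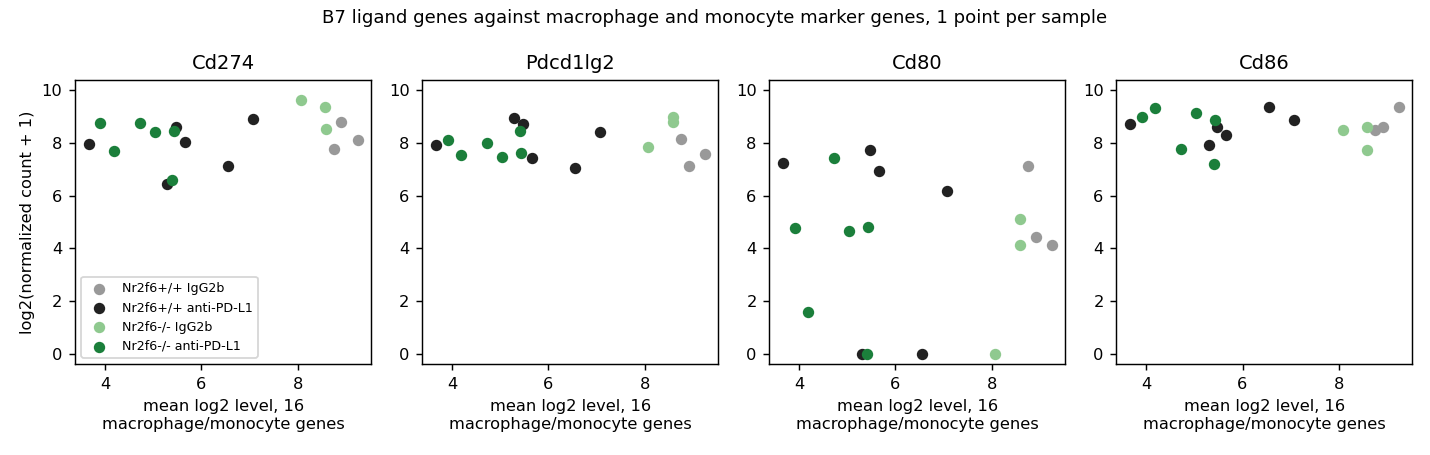
Log2(normalized count + 1) of 4 ligand genes against the mean log2 level of 16 macrophage and monocyte genes, with 1 point per sample colored by group. The IgG2b samples sit at list levels of 8.08 to 9.25 and anti-PD-L1 samples at 3.66 to 7.07, while *Cd86* spans a similar range in both.

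Within a treatment, the ligands were set against 5 marker lists (macrophages, dendritic cells, MHC class II, melanoma cells and B cells), which gave 40 relations. Samples of both genotypes were pooled, so a difference between genotypes enters these coefficients. With IgG2b the melanoma list was at 7.25 in Nr2f6+/+ and 5.35 in Nr2f6-/- samples, and the dendritic cell list at 5.91 and 5.31. Mean log2 levels were 7.62 and 8.54 for *Pdcd1lg2* and 8.81 and 8.27 for *Cd86*, in that order. Relations within a genotype were not tested. By permutation, 3 had an unadjusted p under 0.05 for Pearson's r and 0 after adjustment (smallest adjusted p = 0.481), and 1 and 0 for Spearman's rho. *Pdcd1lg2* with the melanoma list over the 6 IgG2b samples was under 0.05 by both measures before adjustment (r −0.85, exact permutation p = 0.0347, rho −0.89, exact permutation p = 0.0333), and r was −0.23 without the 2 samples farthest from the median of the list. *Pdcd1lg2* with the dendritic cell list had r −0.83 in these samples (exact permutation p = 0.0361, rho −0.83, exact permutation p = 0.0583), and r was −0.87 without the 2 farthest samples. Over the anti-PD-L1 samples this pair had r −0.90 in the first library set and 0.62 in the second. *Cd86* had the largest r, with the dendritic cell list over the 6 IgG2b samples (r 0.87, exact permutation p = 0.0250, rho 0.77, exact permutation p = 0.103), and r was 0.44 without the 2 samples farthest from the median of the list.

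The 8 melanoma genes, of which 7 were tested, had a mean log2 level of 7.25 ± 0.469 (SD, n = 3) and 6.85 ± 0.842 (SD, n = 6) in Nr2f6+/+ mice with IgG2b and anti-PD-L1, and of 5.35 ± 1.16 and 5.17 ± 1.53 in Nr2f6-/- mice. All 7 were fitted lower in Nr2f6-/- mice under either antibody, and 0 passed. Their summed level was 2077 to 7835 normalized counts in Nr2f6+/+ and 799 to 4489 in Nr2f6-/- samples. The 8 B cell genes were at 16.7 to 391 normalized counts in sum, the 8 fibroblast and endothelial genes at 113 to 719, and 0 of either list passed in any comparison, although the mean log2 level of the B cell list in Nr2f6+/+ mice was 2.13 with IgG2b and 0.99 with anti-PD-L1 (exact permutation test, p = 0.0119). Of the 2 platelet genes tested, *Ppbp* passed as lower with anti-PD-L1 in Nr2f6+/+ mice, where the list's sum was 2300 to 2611 with IgG2b and 1.05 to 350 with anti-PD-L1. In Nr2f6-/- mice the sum was already 268 to 703 with IgG2b, and it was 0 to 158 with anti-PD-L1. Both *Pf4* and *Ppbp* passed as lower for the combination. Neither passed between the genotypes with IgG2b (smallest adjusted p = 0.0836 from limma). The part of these cells in the ligand values was not tested.

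The receptors of the ligands were measured in the same samples. *Pdcd1*, which encodes PD-1, was at 6790 ± 1387 (SD, n = 3) and 9801 ± 2134 (SD, n = 6) normalized counts with IgG2b and anti-PD-L1 in Nr2f6+/+ mice, and at 7172 ± 1590 and 9883 ± 1188 in Nr2f6-/- mice. The log2 fold changes, 0.52 (interval 0.12 to 0.92) and 0.48 (0.08 to 0.88), had unadjusted p-values of 0.0129 and 0.0208 in limma and adjusted ones of 0.523 and 0.394. *Cd28* was at 1938 ± 425 in Nr2f6+/+ and 3091 ± 706 in Nr2f6-/- mice with anti-PD-L1 (SD, n = 6 each), a log2 fold change of 0.66 (interval 0.26 to 1.06) with an adjusted p of 0.214 from limma. *Ctla4* and *Icos* had log2 fold changes of 0.53 and 0.42 in the same comparison (adjusted p = 0.592 and 0.513 from limma). Of 6 receptor genes, 0 passed in any of the 6 comparisons. With anti-PD-L1 all 6 were fitted higher in Nr2f6-/- than in Nr2f6+/+ mice, with a median of 0.48 against −0.0049 over all genes tested. In the same comparison 11 of the 12 T cell genes were fitted higher (median 0.25), and the mean log2 level of that list was higher by 0.26 (exact permutation test, p = 0.0216, adjusted p = 0.0618 over 40 list comparisons). The part of the T cell markers in the receptor values was not tested.

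The other genes of these pathways likewise gave no call. Of 16 regulators and partners of PD-L1, 15 were tested and 0 passed in any comparison, with median log2 fold changes of −0.18 for anti-PD-L1 in Nr2f6+/+ mice, 0.17 in Nr2f6-/- mice and 0.16 between the genotypes with anti-PD-L1. Of 16 genes that signal downstream of CD28 and PD-1, 0 passed, and with anti-PD-L1 12 were fitted higher and 4 lower in Nr2f6-/- mice (median 0.26). Among 10 further B7 and butyrophilin-like genes, 2 reached the mean needed for the test and 0 passed. One of these was *4632428N05Rik*, the older symbol of *Vsir*, which encodes the inhibitory B7-like protein VISTA. It was at 3396 to 6723 normalized counts, and between the genotypes with anti-PD-L1 its log2 fold change was 0.33 (interval −0.0049 to 0.67, adjusted p = 0.519 from limma).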

How the data were processed

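RNA sequencing of CD3+ TILs was analysed in 18 samples. Cells enriched on CD4 and on CD8 beads were combined and CD3+ cells isolated by flow cytometry. Libraries were made with the Lexogen QuantSeq kit, which reads 3′ ends of transcripts, and sequenced on an Ion Torrent instrument. According to the paper's methods and the submitters' processing notes, the authors trimmed reads with Cutadapt and Trimmomatic, dropped reads under 22 nucleotides, aligned what was left (STAR, then Bowtie2, mm10) and counted reads per gene with HTSeq. Strand settings, annotation and versions are not given in the sources used here, so overlapping genes are uncertain. The deposited table holds a signal for each gene in each sample, which the authors made as the read count divided by a DESeq2 size factor (0.823 to 1.22), replicates not pooled. Multiplying back gave whole reads for 100% of values (tolerance 0.01). No columns were left out (0), and 0 of 153 pairs of samples were identical.

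Because these values are not counts, limma 3.58.1 (R 4.3.3) with the eBayes trend option was the main test, on log2(normalized count + 1) for the 11992 genes with a mean of at least 10. One model of 4 group means covered all 18 samples. Tests were two-sided, adjusted by Benjamini-Hochberg at 0.05, and fold changes on this scale understate those of low genes. Ligands under the filter and means of marker lists were compared by exact permutation (scipy 1.17.1). Relations over 12 samples used 100000 resamples. As alternatives, the pseudocount was set to 0.5 or 10, the filter dropped or raised to a mean of 50. Further ones were scaling to the same total, only the groups compared, the library set as a covariate or the first set alone, the replicate number as a block, edgeR 4.0.16 and DESeq2 1.42.0 on recovered reads, and leaving out each sample. Alternatives for ligands under the filter were added after seeing the data. So was a test of each ligand's level minus that of the macrophage list, which is not reported because the change of the list itself decides it.

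On simulated data for anti-PD-L1 against IgG2b in Nr2f6+/+ mice (11584 genes), limma recovered 79 of 193 changed genes with 5 false calls. DESeq2 recovered 87 there, with 53 false calls. For the genotypes with anti-PD-L1 (11553 genes), limma recovered 96 of 192 with 4 false calls, and DESeq2 110 with 37. The changes put in were of several sizes, counted together. These counts therefore do not give the power for a ligand change of a given size. The ligands and all lists were chosen with earlier results of these data known. Genes named are the ligands, *Nr2f6*, *Ifng* (chosen after its values were seen), the receptors *Pdcd1*, *Cd28*, *Ctla4* and *Icos*, up to 2 called genes per list and comparison, and the 3 genes most like each ligand. Gene positions and promoters are from RefSeq (GRCm38.p6), on which mm10 rests.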

Additional observations from a re-analysis of the deposited data

Results flagged for a closer look

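Of 10 groups of 6 samples with any spread in a ligand gene, 3 held a sample far from the others. The rule divides the gap to the nearest sample by the range of the group. Its chance rate of about 5% assumes normally distributed values, so it is no background for groups with samples at 0. A group with 1 sample above 0, as for *Cd276*, is always flagged. *Cd80* in Nr2f6-/- anti-PD-L1 replicate 4 was at 172 normalized counts, and the nearest sample of the group was at 27.0. *Icosl* in Nr2f6+/+ anti-PD-L1 replicate 3 was at 49.1, with the nearest at 5.22. *Cd276* in Nr2f6-/- anti-PD-L1 replicate 3 was at 8.50 (7 reads), with the others at 0. All 3 genes had 0 reads in at least 1 sample of the group concerned.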

How the results depend on the processing

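The count of ligand genes that passed was 0 in all 65 combinations of a comparison with another setting. It was also 0 in all 63 combinations of a comparison with a fit without 1 sample. Depth limits *Icosl* and *Cd276*, which rest on 125 and 24 reads. No ligand value that turned had passed the test, and directions turned for 20 of 260 values under the other settings, and the cause was not tested. In the first library set alone these were *Pdcd1lg2* with anti-PD-L1 in Nr2f6+/+ mice (−0.17), *Pdcd1lg2*, *Cd80* and *Cd86* between genotypes with anti-PD-L1 (0.28, 0.0117 and 0.21), and *Cd274* and *Cd86* for the combination (0.33 and 0.18). *Cd80* with anti-PD-L1 in Nr2f6+/+ mice was 0.23 with a pseudocount of 10, 0.66 by edgeR and 0.65 by DESeq2. *Cd86* between genotypes with anti-PD-L1 was 0.0301 by edgeR and 0.0263 by DESeq2, and *Cd274* for the combination 0.0119 by edgeR. The replicate numbers did not pair the samples (mean correlation of deviations 0.007 for 21 pairs with the same number and −0.001 for 96 others). The fit with the replicate block changed no call and gave 0.12 for *Cd86* with anti-PD-L1 in Nr2f6+/+ mice, and 0.0364 for *Cd274*, −0.13 for *Pdcd1lg2* and 0.0383 for *Cd86* for the combination. It called 12 genes against 29 for anti-PD-L1 in Nr2f6+/+ mice. The library set as a covariate gave the same 4 values and the same count.

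Without 1 sample each, values that could turn ranged as follows. With anti-PD-L1 in Nr2f6+/+ mice *Cd80* was between −1.16 and 0.39 and *Cd86* between −0.35 and 0.0883. In Nr2f6-/- mice *Cd80* was between −0.76 and 1.80, and its difference between genotypes between −0.20 and 2.36. Between genotypes with anti-PD-L1 *Cd274* was between −0.0018 and 0.58 and *Cd86* between −0.23 and 0.19. For the combination *Cd274* was between −0.33 and 0.20, *Pdcd1lg2* between −0.0031 and 0.50 and *Cd86* between −0.43 and 0.0068.

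In the first library set alone, where an exact permutation test of 3 against 3 samples cannot go below p = 0.1, the differences were −3.68 and −3.62 for the macrophage list in Nr2f6+/+ and Nr2f6-/- mice and −1.69 and −1.49 for the dendritic cell list. Without 1 sample each the 4 values lay between −3.64 and −2.96, −3.80 and −3.46, −2.12 and −1.81, and −1.80 and −1.42. *Icosl* for the combination was −3.85, *Cd276* with anti-PD-L1 in Nr2f6+/+ mice −2.58 and *Cd276* for the combination −1.50 in that set. Without 1 sample *Cd276* for the combination was between −2.58 and −1.83, and its unadjusted call was lost without any 1 of 8 samples. *Icosl* with anti-PD-L1 in Nr2f6-/- mice was between −2.44 and −0.97 and passed unadjusted without Nr2f6-/- IgG2b replicate 3.

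Over all genes, limma called 29, 39, 21 and 74 for the antibody in Nr2f6+/+ and in Nr2f6-/- mice, the genotypes under antibody and the combination, and DESeq2 94, 230, 184 and 177. With only the groups compared the first 3 counts were 15, 19 and 4. Other counts beyond 1.5 times were 60 and 116 (first and last) with a pseudocount of 10, 17 and 9 (in the middle pair) without the filter, 19 (first) with a mean of 50, 8 and 34 (in the middle pair) in the first library set, and 19 and 41 (first and last) by edgeR. Where limma called 0, the genotypes with IgG2b and the difference of the antibody effect, no filter gave 14 and 5, DESeq2 88 and 76, and a pseudocount of 10 gave 1 and 0. Without 1 sample the 4 counts were 6 to 29, 13 to 41, 9 to 27 and 10 to 68, with the lowest counts of the first, second and last without an IgG2b sample.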
